A study of Mus musculus with 72 samples.

Results

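The B cell genes described here are 9 genes named for the B lymphocyte: Cd79a, Cd79b, Ms4a1, Cd22, Fcmr, Fcrla, Blk, Pax5 and Pou2af1. Their members were found as the non-control mRNA array probes whose transcript accession maps to one of these symbols in RefSeq, which gave 13 probes of the 56605 on the array. Female C57BL/6 J mice aged 6 to 8 weeks were exposed once, over the whole body, to X-rays at a low dose (1 or 2 Gy), at 4 Gy, or at a high dose (8 or 12 Gy), or were sham irradiated (0 Gy). Liver and lung were taken at 48 h from 3 mice per dose, which gave 36 mRNA arrays from 18 numbered mice, with the same numbers used in both organs; whether a number marks the same mouse in both is not stated. No transgene or other allele is named for any group, and whole organ RNA was hybridized. In such bulk RNA, fewer B cells and less RNA per B cell cannot be told apart.

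B cells recognise antigen through a surface immunoglobulin that signals by way of the paired chains CD79A and CD79B. BLK is a kinase of the Src family that acts early in that signal, and CD22 is a lectin that damps it. MS4A1 (CD20), FCMR (the receptor for IgM Fc) and FCRLA (an Fc receptor-like protein kept inside the cell) are further B cell products. PAX5 holds cells in the B lineage, and POU2AF1 (OBF-1) is a coactivator that works with octamer-binding factors. Lymphocytes are among the cells most sensitive to ionizing radiation, and both liver and lung hold resident and blood-borne B cells.

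Short promoter stretches of the members are shown because 3 DNA words are classically tied to B cell promoters. Whether these words had any part in the changes with dose was not tested. RefSeq promoter sequence (build GRCm38.p6, from 250 bases before to 50 after the annotated start) was matched for 6 of the 9 members. Both strands were searched for the octamer ATGCAAAT, for the EBF word TCCCNNGGGA and for the PU.1 (ETS) core GAGGAA, none of which overlapped another here. The octamer was held by 1.74%, the EBF word by 0.904% and the PU.1 core by 28.3% of all 32851 promoters of this length. Of the 6 member promoters, 0 held the octamer, 1 the EBF word and 4 the PU.1 core. The stretches that follow read 5′ to 3′ on the gene's strand, and capitals mark the match.
Cd22, EBF word, chr7:30879059-30879086, minus strand, match from position -49 to the start site: cctgcaagaTCCCTGGGGActcacacag
Cd79a, PU.1 core (reverse strand), chr7:24897346-24897373, plus strand, match from -140: gtgcagggcagTTCCTCtccactcagag
Fcmr, PU.1 core (reverse strand), chr1:130865730-130865757, plus strand, match from -36: cagattatcatTTCCTCattttaagtcc
Fcrla, PU.1 core (reverse strand), chr1:170927604-170927631, minus strand, match from -37: gttaggtttatTTCCTCttttctaattt
Pou2af1, PU.1 core (forward strand), chr9:51213697-51213724, plus strand, match from 18: tggttccacggGAGGAAagcacgcccag
These matches describe the letters only, and no binding was measured.

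Intensities are given as log2 values after normexp background correction and quantile normalization within each organ, and a probe counted as well above background by the scanner software's own flag. Of all spots, 46.1% to 54.0% were well above background on the 18 liver arrays and 54.1% to 64.0% on the 18 lung arrays. The organs matched their labels: the summed intensity of 10 hepatocyte genes was at least 2567900 on every liver array and between 1224 and 88073 on the lung arrays, and that of 8 lung epithelium genes was at least 1184100 in lung and at most 4896 in liver. One lung library stood apart in Dntt, a gene of the thymocyte list. Dntt, the terminal transferase of immature lymphocytes, was at 13.24 in the lung of 0 Gy mouse 21, at 8.27 in mouse 11, and from 4.19 to 5.87 on the other lung arrays. The same probe read from 7.77 to 9.82 on the liver arrays, and which cells gave its signal was not tested. The 4 lung arrays of slide 5, which hold all 12 Gy mice and mouse 25 of the 8 Gy group, had the fewest spots above background (54.1% to 54.8%, against 59.2% to 64.0% on the other 14).

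In liver, 5 of the 8 members that could be tested fell with dose: Ms4a1, Fcmr, Pou2af1, Cd79b and Fcrla. At 12 Gy, Ms4a1 was at least 7.07-fold and Fcmr at least 7.89-fold lower than in sham mice, and Cd79b stood at 17.7% of its sham intensity. Folds given as "at least" follow a rule set out with the processing and are not strict lower bounds. Cd79a, Cd22 and Pax5 did not pass the test at any dose in liver, and Blk was not well above background on any liver array. Calls required a log2 change beyond 1 in either direction together with an adjusted p below 0.05 (limma, Benjamini-Hochberg over all probes tested, n = 3 mice per dose).

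Among the surface molecules, Ms4a1 had liver intensities of 6.86, 7.20 and 7.33 in the 3 sham mice, 6.51, 5.89 and 6.70 at 1 Gy and 5.35, 6.63 and 5.34 at 2 Gy. All 9 values at 4 Gy and above lay between 3.15 and 4.99, below every lower-dose value, and none was well above background. The log2 change of Ms4a1 was -1.36 ± 0.31 (SE) at 2 Gy (adjusted p = 0.0735). At 4 Gy the fitted fall was 5.15-fold (adjusted p = 0.000959), and at 12 Gy the fall was at least 7.07-fold (adjusted p = 6.17e-06).

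Fcmr, which binds secreted IgM, separated at the lowest dose. Its sham livers read 7.01, 7.40 and 7.46, and the 1 Gy livers 6.09, 6.10 and 6.27, a gap wider than the spread within either group. That change of -1.13 ± 0.19 carried an adjusted p of 0.0594 and was not called. At 2 Gy the values were 5.38, 5.34 and 5.13, none well above background, and the fitted fall of Fcmr was 4.01-fold (adjusted p = 0.00018). It stayed between 3.44 and 4.76 at 4, 8 and 12 Gy.

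Cd79b, a signalling chain of the B cell receptor, remained well above background on all 18 liver arrays, so its fall was measured and not bounded. Sham livers read 8.36, 9.14 and 9.20, the 1 Gy livers 8.02, 7.79 and 8.07, and the 2 Gy livers 7.44, 7.71 and 7.01. At 4, 8 and 12 Gy the values ran from 6.09 to 7.08 and overlapped among these doses. The changes were -0.94 ± 0.27 at 1 Gy (adjusted p = 0.44), -1.51 at 2 Gy (adjusted p = 0.0255, a call lost without sham mouse 11 or 21 or 2 Gy mouse 3 or 23), -2.34 at 4 Gy (adjusted p = 0.000422), -2.27 at 8 Gy and -2.50 at 12 Gy (adjusted p = 8.39e-05). Most of the fall in Cd79b was thus present by 4 Gy.

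Its partner chain Cd79a gave a liver signal close to background. It was well above background on 1 of 18 liver arrays (sham mouse 21, at 4.95), and its sham values of 4.69, 4.96 and 4.95 against 4.61, 3.82 and 4.02 at 12 Gy left a change of -0.72 ± 0.33 (adjusted p = 0.23). At that level only a small fall could have been measured.

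Pou2af1, the octamer coactivator, read 6.54, 6.93 and 7.01 in sham livers, 6.43, 6.00 and 6.12 at 1 Gy, and 4.81, 3.97 and 4.02 at 12 Gy. Every irradiated liver lay below every sham liver. The change was called from 4 Gy (-1.96 ± 0.30, adjusted p = 0.00335), and at 12 Gy Pou2af1 was at least 5.26-fold lower (adjusted p = 0.000176). Fcrla, the intracellular Fc receptor-like protein, read 5.81, 6.26 and 6.12 in sham livers and 4.93, 3.92 and 5.30 at 12 Gy, where the 3 mice spread widely. Its fitted fall at 4 Gy, to values at background, was 2.61-fold (adjusted p = 0.0175). At 8 Gy the fall was at least 3.12-fold (adjusted p = 0.00192), and the change at 12 Gy was -1.34 ± 0.29 (adjusted p = 0.0109). The liver calls of Fcrla were the least firm: with a background offset of 50 its changes fell short of the fold threshold at all 3 doses (-0.62, -0.76 and -0.59). The 4 Gy call was lost without sham mouse 11 or 21 or 4 Gy mouse 4 or 24, and the 12 Gy call without sham mouse 11 or 12 Gy mouse 16.

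Cd22 and Pax5 gave flat liver profiles with the probes that represent them. Cd22 read 5.75, 5.96 and 6.11 in sham livers and 5.73, 5.39 and 5.59 at 12 Gy, a change of -0.37 ± 0.16 (adjusted p = 0.2). Pax5 read 5.54, 6.00 and 5.71 against 6.31, 6.05 and 5.86, a change of 0.32 ± 0.22 (adjusted p = 0.451). A second Pax5 probe, which disagreed with this one in lung, was near background in liver. Its mean was 4.73 in sham livers (1 of 3 well above background) and 4.18 at 12 Gy (0 of 3). A fall of Pax5 in liver could therefore hardly have been measured with that probe.

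Counted over the members, 0 of 8 were called lower in liver at 1 Gy, 2 at 2 Gy (Cd79b and Fcmr), and 5 at each of 4, 8 and 12 Gy. No member was called higher at any dose. At 1 Gy, 4 of the 8 had an unadjusted p below 0.05, as did 7.07% of all probes. Of all 38362 probes tested, 0.0209%, 0.164%, 0.623%, 1.37% and 1.33% were called lower at the 5 rising doses. Their median log2 change was between -0.0032 and 0.01 at every dose, against -0.67, -1.22, -1.67, -2.03 and -1.92 for the members. The linear trend over dose, given as the change over 12 Gy, called the same 5 genes (1.14% of all probes called lower), with Ms4a1 at -3.49 ± 0.34 (adjusted p = 5e-06) and Fcrla at -1.16 ± 0.34 (adjusted p = 0.0369). The Fcrla trend call was lost with an offset of 50 (-0.47), after 75th percentile scaling (adjusted p = 0.14), in the deposited series values (0.165), without the filter (0.0558), with slide as a term (0.641) or a random block (0.0942), in the joint fit (0.0807), and when any of 8 mice was left out.

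The sham livers shared their slide with the 1 Gy livers and 2 of the 2 Gy livers, and the other irradiated livers lay on other slides. With slide as a term in the fit, the members called lower became 1 at 2 Gy, 1 at 4 Gy, 2 at 8 Gy, 2 at 12 Gy and 0 in the trend. Fcmr kept its call at each of those 4 doses (-1.93, -2.44, -3.26 and -3.22, adjusted p from 0.00166 to 0.0141), and the changes of Cd79b, Ms4a1, Pou2af1 and Fcrla stayed below 0. Within slide 1, which carried the sham livers and 2 mice of the 2 Gy group, 7 of the 8 members were lower at 2 Gy, with a median difference of -1.19. The share of all probes lower in that comparison was not counted.

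**Figure D1:**
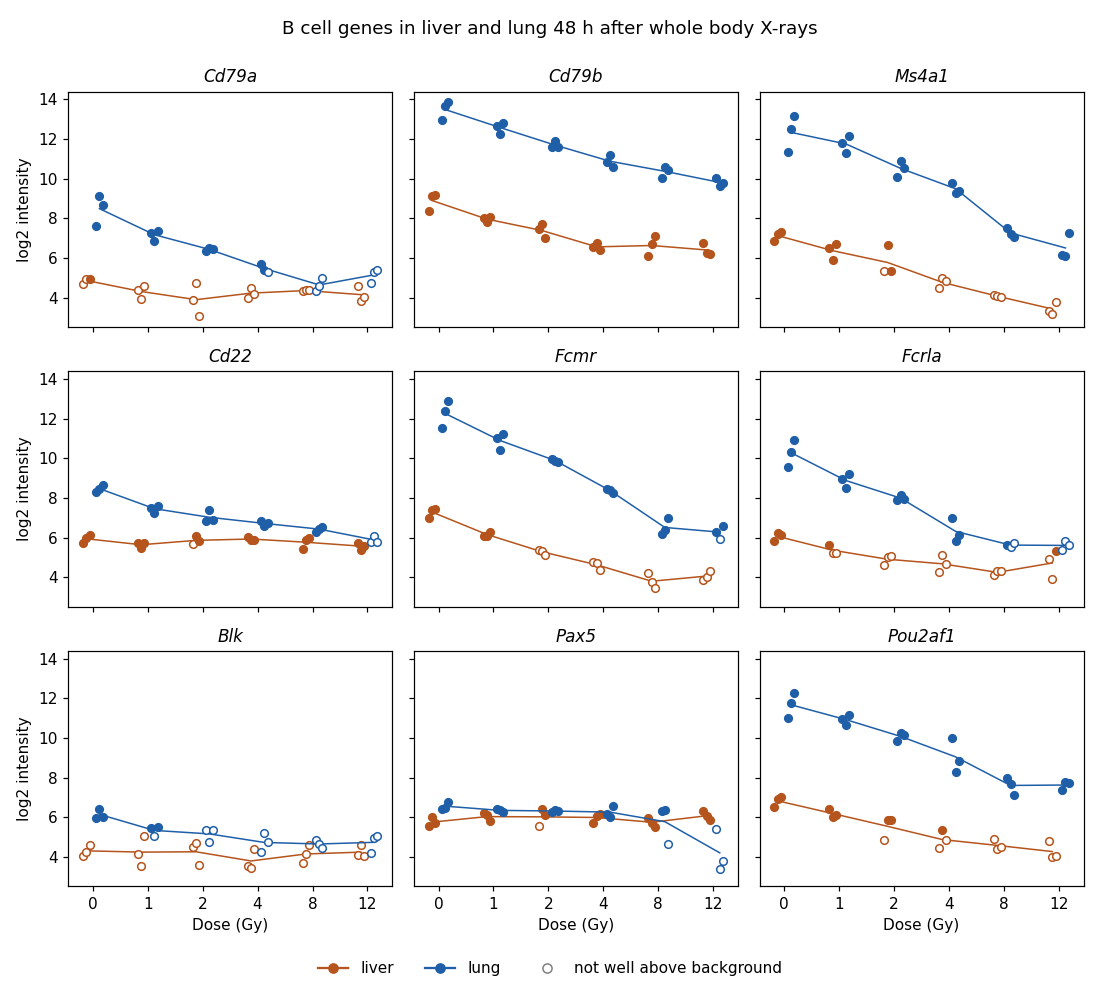
Log2 intensity of each B cell gene (y axis) in every mouse by dose in Gy (x axis, doses evenly spaced), liver in orange and lung in blue, each organ normalized on its own. Points are single mice, lines join group means, and open points were not well above background; Fcmr falls from 11.55 to 12.87 in sham lungs to 5.95 to 6.59 at 12 Gy.

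In lung, all 9 members fell. At 12 Gy, Fcmr stood at 1.57% of its sham intensity, Ms4a1 at 1.75%, Pou2af1 at 6.03% and Cd79b at 7.81%. The fitted falls of Fcrla and Cd22, to values at background, were 25.7-fold and 6.02-fold, and Cd79a was at least 9.03-fold lower. Blk was at least 1.91-fold and Pax5, with the probe that represents it, at least 2.81-fold lower. The "at least" folds are set in part by how bright a probe was in sham lungs. The levels are proportions of each gene's own sham intensity, since intensities of different probes cannot be ranked against each other.

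The receptor chains fell in parallel. Cd79a read 7.63, 9.15 and 8.69 in sham lungs, 7.27, 6.87 and 7.38 at 1 Gy, 6.34, 6.52 and 6.44 at 2 Gy and 5.71, 5.42 and 5.29 at 4 Gy. It was not well above background in any lung at 8 or 12 Gy, where it was at least 13.0-fold (adjusted p = 1.57e-06) and at least 9.03-fold lower (adjusted p = 4.76e-06). Cd79b read 12.94, 13.68 and 13.85 in sham lungs, 12.67, 12.27 and 12.82 at 1 Gy, 11.60, 11.88 and 11.61 at 2 Gy and 10.85, 11.21 and 10.59 at 4 Gy. The groups at 0, 2 and 4 Gy did not overlap for either chain. Cd79b reached 10.02, 9.63 and 9.80 at 12 Gy, a change of -3.68 ± 0.24 (adjusted p = 1.65e-07), and stayed well above background on all 18 lung arrays.

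Ms4a1 had the widest spread in sham lungs, at 11.33, 12.53 and 13.17, and its 1 Gy values of 11.80, 11.32 and 12.15 lay within it. At 2 Gy the values were 10.10, 10.90 and 10.56, below every sham lung, yet the change of -1.82 ± 0.41 was not called (adjusted p = 0.0645). At 4 Gy Ms4a1 read 9.81, 9.27 and 9.40, and at 8 Gy 7.50, 7.22 and 7.06. The changes were -2.85 (adjusted p = 0.00091), -5.08 (adjusted p = 1.73e-06) and, at 12 Gy, -5.84 ± 0.41 (adjusted p = 2.63e-07). The 12 Gy lungs read 6.16, 6.09 and 7.27, with mouse 26 inside the 8 Gy range.

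Fcmr showed the most even descent: 11.55, 12.37 and 12.87 in sham lungs, 11.02, 10.43 and 11.24 at 1 Gy, 9.99, 9.89 and 9.79 at 2 Gy, 8.48, 8.40 and 8.25 at 4 Gy, and 6.19, 6.37 and 6.97 at 8 Gy. None of these 5 groups overlapped the next. At 12 Gy (6.28, 5.95 and 6.59) it overlapped the 8 Gy values, and the change from sham was -5.99 ± 0.30 (adjusted p = 1.05e-08). Fcrla read 9.59, 10.33 and 10.95 in sham lungs, 7.87, 8.13 and 7.96 at 2 Gy, and 7.00, 5.81 and 6.13 at 4 Gy, where mouse 4 stood above the other mice. From 8 Gy on, 1 of 6 lungs was well above background.

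Cd22, the inhibitory lectin, read 8.30, 8.43 and 8.67 in sham lungs and 7.52, 7.26 and 7.61 at 1 Gy. That change of -1.01 ± 0.17 had the lowest adjusted p of the members at this dose (0.0606) and was not called. At 2 Gy Cd22 was called (-1.45, adjusted p = 0.000699), and its fitted fall at 12 Gy, to values at background, was 6.02-fold (adjusted p = 1.79e-07). Blk, the Src family kinase, read 5.98, 6.42 and 6.02 in sham lungs and was not well above background in any lung from 2 Gy on. Its fitted fall at 4 Gy, to values at background, was 2.67-fold (adjusted p = 0.0104). With an offset of 50 the Blk changes at 4, 8 and 12 Gy (-0.65, -0.69 and -0.65) fell short of the fold threshold. The 4 Gy call was also lost with slide as a random block (adjusted p = 0.144), in the joint fit (adjusted p = 0.114), and without sham mouse 11 or 4 Gy mouse 4, and the 8 Gy call in the joint fit (adjusted p = 0.068).

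Of the transcriptional regulators, Pou2af1 read 11.00, 11.76 and 12.28 in sham lungs, 9.85, 10.23 and 10.15 at 2 Gy, 9.99, 8.29 and 8.85 at 4 Gy, 7.99, 7.69 and 7.12 at 8 Gy and 7.36, 7.77 and 7.74 at 12 Gy. Its change was -1.60 ± 0.38 at 2 Gy (adjusted p = 0.0902) and -4.05 at 12 Gy (adjusted p = 5.71e-06). The Pax5 probe with the higher mean over all 36 arrays was flat from 6.44, 6.48 and 6.75 in sham lungs to 6.30 and 6.36 in 8 Gy mice 5 and 15. It dropped to 4.66 in 8 Gy mouse 25 and to 5.43, 3.38 and 3.80 at 12 Gy, which are the 4 arrays of slide 5. The call of that probe at 12 Gy (adjusted p = 0.00247) and its trend rest on that slide: without those arrays the Pax5 trend was -0.28 (adjusted p = 0.562). With the offset of 50 the trend was -0.91, short of the fold threshold.

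**Figure D2:**
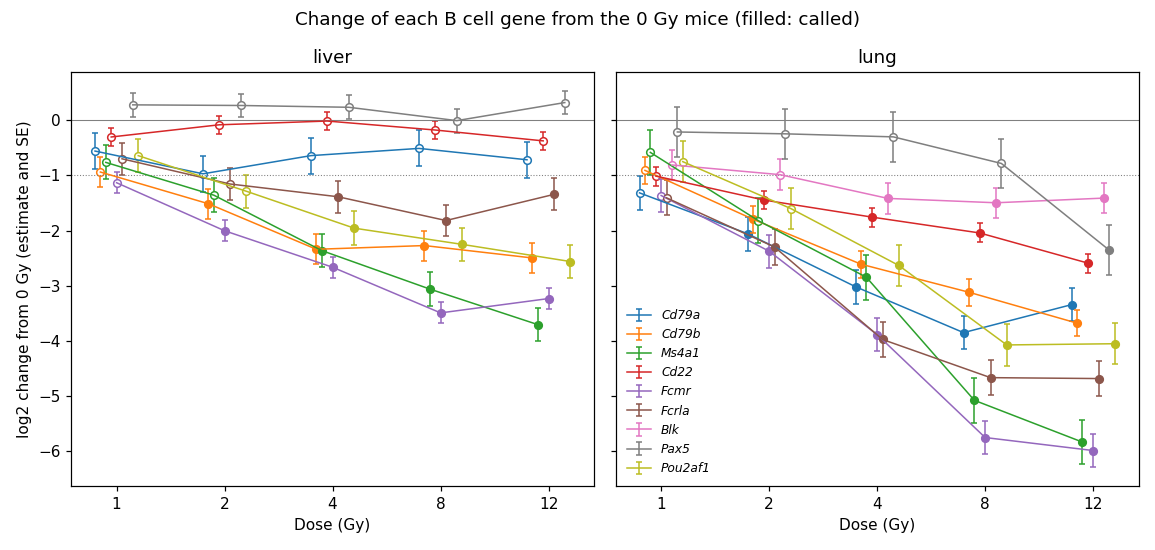
Log2 change from 0 Gy (y axis, estimate with its standard error) at each dose in Gy (x axis, evenly spaced) for each B cell gene in liver and lung. Filled points passed the call, the dotted line marks a log2 change of -1, and 5 liver genes and all 9 lung genes were called at 12 Gy; changes to groups not above background are fitted values, not bounds.

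Of the members, 3 have more than one probe, and for Pax5 the probes disagreed. The second Pax5 probe (same accession, NM_008782) read 7.39, 7.65 and 7.86 in sham lungs, 6.72, 6.26 and 6.58 at 1 Gy, 5.96, 5.85 and 5.53 at 2 Gy and 5.32, 4.89 and 4.89 at 4 Gy. It was called lower at 4 Gy (-2.60 ± 0.27, adjusted p = 5.72e-05) and was at least 7.00-fold lower at 8 Gy, on arrays where the other probe changed by -0.30 at 4 Gy and -0.78 at 8 Gy. In sham lungs this second probe was the brighter of the pair, and its change at 4 Gy was close to that of Pou2af1 (-2.63). The second Cd22 probe followed the first in lung, with -2.36 at 4 Gy (adjusted p = 6.84e-05) against -1.76. In liver its change at 12 Gy was -0.72 ± 0.15 (adjusted p = 0.0106), short of the fold threshold. The remaining Cd22 probe was not well above background on any of the 36 arrays. The dimmer Ms4a1 probe fell by 1.45 at 4 Gy in lung (adjusted p = 0.0239) and was well above background on 1 liver array.

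**Figure D3:**
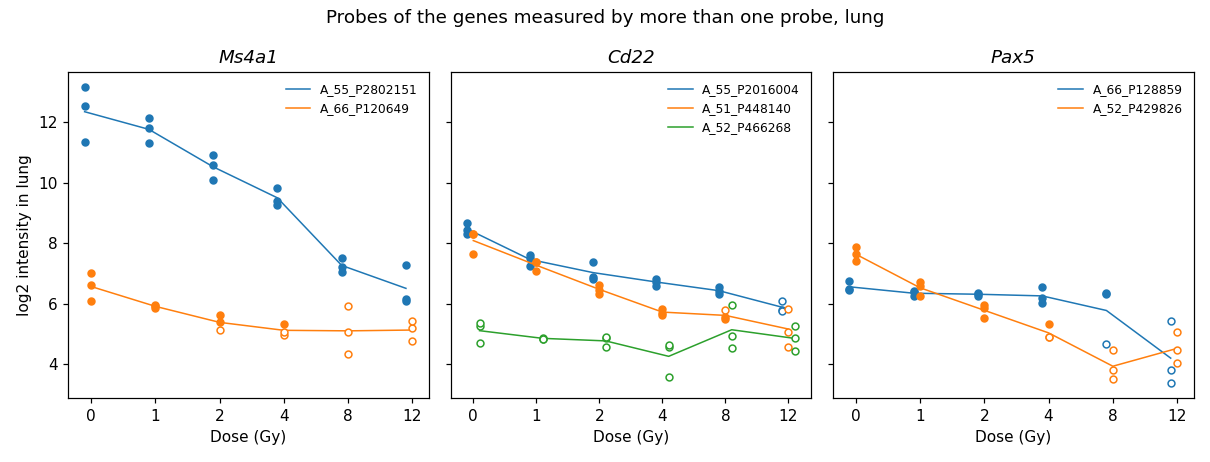
Log2 intensity in lung (y axis) by dose in Gy (x axis, evenly spaced) for the probes of Ms4a1, Cd22 and Pax5. Points are single mice (open where not well above background) and lines join means; the blue Pax5 probe stays level to 4 Gy while the orange one falls from 7.39 to 7.86 at 0 Gy to 4.89 to 5.32 at 4 Gy.

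In lung, 0 of 9 members were called at 1 Gy, although all 9 changes were below 0 and 6 had an unadjusted p below 0.05, as did 5.52% of all probes. At 2 Gy 5 were called lower (Cd79a, Cd79b, Cd22, Fcmr and Fcrla), at 4 and 8 Gy 8 (all but Pax5), and at 12 Gy and in the trend 9. The shares of all 43979 probes called lower were 0.0114%, 0.373%, 1.22%, 1.99% and 4.3% at the 5 doses and 4.35% in the trend. The median change of the members was -0.91, -1.79, -2.63, -3.85 and -3.68, while that of all probes tested lay between 0.0061 and 0.09. In the trend the change over 12 Gy ran from -1.10 ± 0.30 for Blk (adjusted p = 0.0103) to -5.98 ± 0.43 for Ms4a1 (adjusted p = 1.14e-07).

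All lung arrays at 2 Gy and above lay on other slides than the sham lungs, so slide and dose cannot be told apart in those comparisons. Within slide 4, which held the 2 and 4 Gy lungs and 2 lungs of the 8 Gy group, 9 of 9 members were lower at 4 than at 2 Gy (median difference -0.96) and 8 of 9 lower at 8 than at 2 Gy (median -1.97). Blk, counted as lower in both, was not well above background in any of these lungs. The members moved together, and the share of all probes lower in these comparisons was not counted. With slide as a random block, 1 member was called at 2 Gy (Cd22, adjusted p = 0.0321), while the changes of Cd79a (-1.98), Cd79b (-1.78), Fcmr (-2.27) and Fcrla (-2.27) stayed close to those without the block. At 12 Gy Pax5 (adjusted p = 0.0549) and Blk (adjusted p = 0.0534) were no longer called. Without the lung of sham mouse 21, the number called was unchanged at every dose and in the trend, and the median change of the members was -1.41 at 2 Gy and -3.50 at 12 Gy. Sham mouse 1 was the lowest of the 3 sham lungs for all 9 members. Without it, 2 members (Cd79a and Fcmr) were called at 1 Gy and 7 at 2 Gy, with Ms4a1 and Pou2af1 added.

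Between neighbouring doses, 0 members were called in either organ. The share of all probes called lower was 0% in each of the 4 liver steps, and 0.00227% from 1 to 2 Gy, 0% from 2 to 4 Gy, 0.0114% from 4 to 8 Gy and 0.159% from 8 to 12 Gy in lung. The step sizes still differed between genes. In lung, Ms4a1 and Fcmr had their widest step from 4 to 8 Gy, at -2.23 ± 0.41 (adjusted p = 0.205) and -1.87 ± 0.30 (adjusted p = 0.0759), whereas Fcrla changed by -1.68 ± 0.32 from 2 to 4 Gy (adjusted p = 0.238). From 8 to 12 Gy the step of Pou2af1, well above background at both doses, was 0.02 ± 0.38. Blk and Fcrla were at background by then, so a further fall could not have been measured. At an unadjusted p below 0.05, the lung steps counted 7, 6, 5 and 3 of 9 members in rising order of dose, and the liver steps 1, 4, 2 and 0 of 8. The same threshold was met by 6.28%, 5.13%, 4.78% and 19.6% of all probes in the lung steps and by 10.4%, 10.8%, 10.5% and 9.78% in the liver steps, so the liver counts from 1 to 2 Gy and from 8 to 12 Gy were near or below that share.

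The 2 organs differed before irradiation. In sham mice, with all 36 arrays normalized together, 8 of 9 members were called higher in lung than in liver (18.3% of 47376 probes were). All sham livers lay on slide 1 and all sham lungs on slide 3, so organ and slide cannot be told apart here. Ms4a1 was 3.95 ± 0.40 higher on the log2 scale (adjusted p = 1.8e-09), Fcmr 3.71 ± 0.27, Cd79b 3.63 ± 0.27, Pou2af1 3.52 ± 0.41, Fcrla 2.85 ± 0.37 and Cd79a 2.60 ± 0.35. Blk was 1.17 ± 0.39 higher (adjusted p = 0.0129) and Cd22 1.10 ± 0.18. Blk was well above background on 0 liver arrays and Cd79a on 1, so their sizes set lung signal against liver background. The Blk call was lost without mouse number 1 or 11. With an offset of 50 the Blk (0.48) and Cd22 (0.84) differences fell short of the fold threshold. The Pax5 probe that represents the gene did not pass, at -0.50 ± 0.35 (adjusted p = 0.238), whereas its second probe was 1.95 ± 0.30 higher in lung (adjusted p = 3.04e-06).

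The response was then compared between organs as the lung change minus the liver change. Slides largely followed organ and dose, so the part of slide in these differences cannot be told apart. The members called lower in that difference numbered 0 of 9 at 1 Gy, 1 at 2 Gy (Cd22), 1 at 4 Gy (Cd22), 3 at 8 Gy (Cd79a, Cd22 and Fcmr) and 6 at 12 Gy (with Cd79b, Pax5 and Fcrla added), against 0.00211%, 0.0338%, 0.165%, 0.494% and 2.66% of all probes. The trend differed for Cd79a, Pax5, Cd22 and Fcrla, against 3.68% of all probes. With an offset of 50, the organs normalized separately, or the mouse number as a block, 7 members were called in the trend. At 12 Gy the fitted difference was -2.76 ± 0.52 for Fcrla (adjusted p = 0.00179), -2.12 ± 0.39 for Fcmr (adjusted p = 0.00128) and -1.96 ± 0.25 for Cd22 (adjusted p = 3.56e-05). These sizes depend on background values: at 12 Gy Fcrla was well above background in 0 of 3 lungs and 1 of 3 livers, Fcmr in 0 of 3 livers and Cd22 in 0 of 3 lungs. Cd79a was well above background in only 1 of 3 sham livers, so almost no liver fall of Cd79a could have been measured, and its 12 Gy call was lost without mouse number 6 or 11. For Ms4a1 it was -1.49 ± 0.57 (adjusted p = 0.0954) and for Pou2af1 -0.98 ± 0.59 (adjusted p = 0.316). Apart from Cd79b, Cd22 and Pax5, nearly all liver values from 4 to 12 Gy were not well above background, so a liver fall could not be followed as far down as the lung fall, and the part of this limit in the differences was not tested. Cd79b, above background on all 36 arrays, differed by -1.65 ± 0.38 at 12 Gy (adjusted p = 0.00779), but by -0.94 (adjusted p = 0.144) after scaling to the 75th percentile and by -0.88 (adjusted p = 0.173) in the deposited series values, so its call depended on the scaling. The Fcmr call at 8 Gy (adjusted p = 0.0304) was likewise lost after 75th percentile scaling (-1.37, adjusted p = 0.0975) and in the deposited series values (-1.34, adjusted p = 0.121), and without mouse 5, 11, 15 or 21. The Cd22 call at 2 Gy (adjusted p = 0.046) was lost when any one mouse number of the compared groups was left out.

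Correlations between members are given as a description over 18 arrays that share their doses. The 36 gene pairs in lung had Pearson r from 0.325 to 0.978 (median 0.920), and the 28 pairs in liver from -0.156 to 0.938 (median 0.436), with Cd79a, above background on 1 liver array, among the genes paired. Among the 5 genes called in liver, the 10 pairs ran from 0.802 to 0.938 in liver and from 0.935 to 0.978 in lung. Genes outside the members whose pattern was most like their mean profile were, in lung, H2-Oa (r = 0.990), Fcer2a (0.987), Bank1 (0.986), Cxcr5 (0.984) and Btla (0.982) among others, of 19718 genes. In liver they were led by Tgm2 (0.930), Folr2 (0.923), Coro1a (0.913), Cd8b1 (0.905) and Rcn1 (0.903), of 17894 genes. Coro1a was among the 10 most alike in both organs.

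Genes of other B cell lists were also called lower in both organs, and whether other cells contributed to their levels was not tested. Of the 17 B cell surface genes, 12 of 17 tested were called lower in lung at 12 Gy and 7 of 15 tested in liver, with a median change of -3.14 and -0.95. The named liver genes of this list were at background at 12 Gy, and the difference between organs was not tested for the list. Tnfrsf13c, the BAFF receptor, fell at least 26.5-fold in lung (adjusted p = 1.8e-08), Fcer2a (CD23) at least 37.2-fold and Cxcr5, the follicle-homing receptor, at least 24.7-fold. The fitted fall of Cr2 (CD21) in lung, to values at background, was 19.8-fold. In liver, the fitted fall of Ccr7 was 5.02-fold, and Fcer2a was at least 3.61-fold lower. Of 17 receptor signalling genes, 8 were called lower in lung and 2 in liver. Bank1, a B cell scaffold protein, fell at least 13.9-fold in lung, and Prkcb changed by -2.31 ± 0.24. In liver Plcg2 changed by -1.09 ± 0.17 (adjusted p = 0.00149). No gene of either list was called higher, when 0.73% of all probes in liver and 3.03% in lung were.

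Of 10 B lineage transcription factors, 3 were called lower in each organ at 12 Gy. Spib fell at least 14.0-fold in lung and at least 1.98-fold in liver, Ikzf3 changed by -2.59 ± 0.29 in lung, and Irf8, which myeloid cells also use, by -1.35 ± 0.18. Genes of other B cell stages were mixed. Of the plasma cell list, Jchain changed by -3.07 ± 0.86 (adjusted p = 0.0208) and Mzb1 by -1.50 ± 0.33 in lung, and Derl3 by -2.17 ± 0.48 in liver. Of the germinal centre list, Mybl1 rose in both organs (2.58 ± 0.15 in lung and 2.42 ± 0.23 in liver), and Serpina9 fell at least 28.9-fold in liver but rose by 1.09 ± 0.26 in lung. Of the precursor list, Il7r, which T cells also express, changed by -2.29 ± 0.32 in lung. The Dntt change there (-4.36 ± 1.14, adjusted p = 0.0149) was set against sham values of 13.24 in mouse 21, 8.27 in mouse 11 and 5.87 in mouse 1. Its dependence on mouse 21 was not tested. None of the 8 immunoglobulin genes listed could be matched to a probe. Of 6 ligand genes of B cell survival and homing, Cxcl12 was called lower in lung (-1.05 ± 0.26, adjusted p = 0.0108) and Ccl21a in liver (-1.33 ± 0.23, adjusted p = 0.00255).

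**Figure D4:**
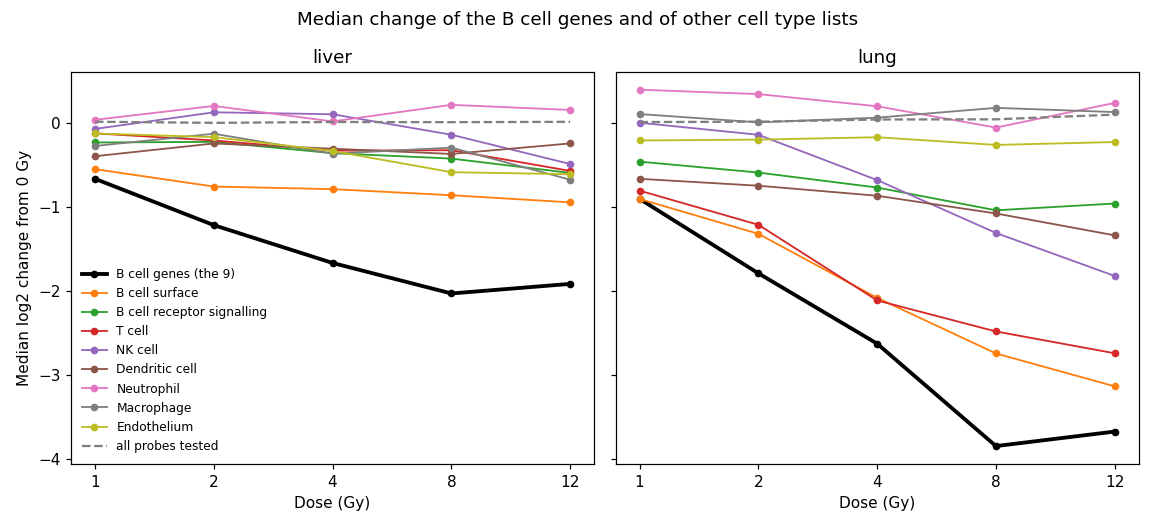
Median log2 change from 0 Gy (y axis) of the 9 B cell genes (black) and of other gene lists by dose in Gy (x axis, evenly spaced) in liver and lung, with the median of all probes tested as a dashed line. The B cell genes reach -2.03 in liver and -3.85 in lung at 8 Gy, and the T cell list reaches -2.75 in lung at 12 Gy.

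Genes of other blood cells moved alongside. Of 10 T cell genes, 1, 7, 8 and 9 were called lower in lung at 2, 4, 8 and 12 Gy, and 0, 0, 2 and 4 of 9 in liver. Their summed lung intensity ran from 12886 to 39589 in sham mice and from 3747 to 5433 at 12 Gy, while that of the 9 B cell genes ran from 16922 to 39420 and from 1345 to 1544. Sham mouse 21, the lung with high Dntt, was also the highest for Cd3d (13.15, against 11.25 and 11.83) and Cd3e (12.46, against 10.33 and 10.97). Cd3d, a chain of the T cell receptor complex, changed by -4.41 ± 0.33 in lung and -1.75 ± 0.24 in liver at 12 Gy. Of 6 NK cell genes, 6 were called lower in lung at 12 Gy (0 at 2 Gy), with Gzma at -1.88 ± 0.28, and 1 of 5 in liver. Macrophage genes (0 of 10) and endothelial genes (0 of 6) were called in neither direction in either organ at 12 Gy. In liver their median changes were -0.68 (9 of 10 below 0) and -0.61 (6 of 6 below 0), and the summed macrophage intensity was 48442 to 54806 in sham mice and 32793 to 33428 at 12 Gy. Of 10 neutrophil genes, Camp was called lower in both organs and Mmp8 higher in lung (1.29 ± 0.37). Among dendritic cell genes, 3 of 6 were called lower in lung and 2 of 6 in liver, led by Flt3 (at least 10.9-fold in lung and at least 2.32-fold in liver). The part of these other cells in the levels of any member was not tested. Among organ markers, no hepatocyte gene was called in either organ, and Sftpb alone of the lung epithelium list was called lower in lung (-1.18 ± 0.39, adjusted p = 0.0422).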

How the data were processed

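RNA from liver and lung was hybridized to 1-colour Agilent mouse arrays with 59305 spots for 56605 non-control probes. The intensity values deposited by the authors are median spot and local background intensities written by Agilent Feature Extraction 11.5.1.1, not normalized between arrays. The deposited flags (above background, outlier) are other values, 0 or 1, from the same software. The deposited series values, used as an alternative, are linear intensities whose making is not given in the sources used here. On each array they followed the software's processed signal scaled to its 75th percentile (r from 0.9979 to 0.99999). These values and the 75th percentile scaling are therefore not separate checks.

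Intensities were corrected with normexp (offset 0), control spots dropped, outlier spots set to missing, and arrays quantile-normalized within an organ, or over both organs for comparisons between them (R 4.3.3, limma 3.58.1, statmod 1.5.0). Detection (the flag set on 0.5 or more of a probe's spots) was required on at least 1 array of a fit for the probe to be tested. Group means, and a slope per Gy multiplied by 12, were fitted with limma and empirical Bayes moderation, and all adjusted p values are limma's after Benjamini-Hochberg. Each gene is represented by its brightest probe over all 36 arrays, and other probes are given from the same fit. "At least" folds set the brighter group's mean against the dimmer group's mean with each array raised to its lowest signal well above background. Arrays whose lowest such signal lay below the probe's value were not raised, so an "at least" fold can lie close to the fitted fold. Where no array was raised, the fitted fold is given. The lowest signal is taken over all probes, and a given probe can go unflagged at higher values. Fcmr did so at 5.13 to 5.38 in liver at 2 Gy. The "at least" folds are therefore values under this rule and not strict lower bounds.

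The members, the other gene lists and the naming rule were chosen with earlier results of these data known. All 9 members are described. Of each other list, at most 4 genes per organ are named, those called at 12 Gy with the largest change. Some genes that this rule names are not reported here. Likeness is Pearson's r with the mean of the members, each centred and divided by its SD. The fit was tested on simulated data. Precision is limited by how many arrays there are. The design had assumed mean spot intensities, but the files hold medians, which were used. Alternatives were an offset of 50, scaling to the 75th percentile, the deposited series values, outlier spots kept, no filter, the mean over a gene's probes, slide or mouse as a block, other normalization groups, and leaving out each mouse. Leaving out slide 5 was chosen after seeing the data. 0 columns of per-sample values were left unused in the series table. The miRNA arrays were not used here. Figures were drawn in Python 3.11.15 with matplotlib 3.10.9.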

Additional observations from a re-analysis of the deposited data

Results flagged for a closer look

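For 6 members the fitted change differed between lung and liver in a test of the difference itself (limma interaction, lung change minus liver change on the log2 scale, Benjamini-Hochberg over 47376 probes). Cd22 differed at 2 Gy by -1.31 ± 0.25 (adjusted p = 0.046), at 4 Gy by -1.68 (adjusted p = 0.000967), at 8 Gy by -1.73 (adjusted p = 0.000273), at 12 Gy by -1.96 (adjusted p = 3.56e-05) and in the trend by -1.61 ± 0.32 (adjusted p = 0.000906). Cd79a differed at 8 Gy by -2.75 ± 0.50 (adjusted p = 0.00309), at 12 Gy by -2.09 (adjusted p = 0.00915) and in the trend by -2.31 ± 0.64 (adjusted p = 0.0114). The 12 Gy call of Cd79a was lost without mouse number 6 or 11. Fcmr differed by -1.64 ± 0.39 at 8 Gy (adjusted p = 0.0304) and -2.12 at 12 Gy (adjusted p = 0.00128), and the 8 Gy call was lost after 75th percentile scaling (adjusted p = 0.0975). Cd79b differed at 12 Gy by -1.65 ± 0.38 (adjusted p = 0.00779), a call lost after 75th percentile scaling (-0.94, adjusted p = 0.144) and in the deposited series values (-0.88, adjusted p = 0.173). Fcrla differed at 12 Gy by -2.76 ± 0.52 (adjusted p = 0.00179) and in the trend by -2.53 ± 0.79 (adjusted p = 0.0253). Pax5 differed at 12 Gy by -2.45 ± 0.49 (adjusted p = 0.00279) and in the trend by -1.93 ± 0.41 (adjusted p = 0.00146), and without the 4 lung arrays of slide 5 the trend difference was -0.32 (adjusted p = 0.827). These sizes include values at background: at 12 Gy Fcmr was well above background in 0 of 3 livers, Fcrla in 1 of 3 livers and 0 of 3 lungs, and Cd79a in 0 of 3 of either organ, so a fall in liver could not be followed below that level. Cd22 and Pax5 were well above background in 0 of 3 lungs at 12 Gy. Cd79a was so in only 1 of 3 sham livers, so almost no liver fall of Cd79a could have been measured at any dose. Slides largely followed organ and dose, and their part in the differences between organs cannot be told apart.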

How the results depend on the processing

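No called value changed sign under any alternative. Dim liver signals, 3 mice per dose and slides that largely follow dose limit these results. With an offset of 50, members called lower numbered 2 in lung at 1 Gy (0 in the reported fit), and in the difference between organs 0 at 2 Gy (1), 4 at 4 Gy (1), 7 at 8 Gy (3) and 7 in the trend (4). Scaling to the 75th percentile gave 1 in lung at 1 Gy, 1 from 4 to 8 Gy and 1 from 8 to 12 Gy (each 0), and 2 at 2 Gy and 3 at 4 Gy between organs. The deposited series values, which are close to that scaling, gave 1 from 8 to 12 Gy in lung, and 0 at 2 Gy and 2 at 4 Gy between organs. Keeping outlier spots gave 1 in lung at 1 Gy. Without the filter, and with the mean over probes, 0 were called at 2 Gy between organs. Slide as a term gave 1, 1, 2 and 2 in liver at 2, 4, 8 and 12 Gy and 0 in the liver trend (2, 5, 5, 5 and 5), and 2 in the lung trend (9). Slide as a random block gave 1 in lung at 1 Gy and 1 at 2 Gy (5). Fitting both organs together gave in lung 1 at 1 Gy, 1 from 2 to 4 Gy, 2 from 4 to 8 Gy and 1 from 8 to 12 Gy. Normalizing the organs separately gave 3 at 4 Gy, 5 at 8 Gy and 7 in the trend between organs. With the mouse number as a replicate block, 0 were called at 2 Gy and 7 in the trend between organs. The numbers were not taken as pairing, since no label states it. Over 18 pairs of the same number r ran from -0.167 to 0.249, 3 exceeded 0.1, and 8 of 18 samples matched their own number best among 3 per dose, which does not decide it. Among members well above background in all 3 mice, sham mouse 1 was lowest for 7 in liver and 9 in lung, and 1 Gy mouse 12 for 4 in liver and 7 in lung. From 2 Gy on few liver members qualified, and the lowest numbers were mixed. Whether the organs of a number are independent was not tested. Leaving out 1 mouse at a time gave, in liver, 0 to 1 at 1 Gy, 1 to 3 at 2 Gy, 4 to 5 at 4 Gy, 5 to 5 at 8 Gy, 4 to 5 at 12 Gy and 4 to 5 in the trend, and 0 to 0 in each step between doses. In lung it gave 0 to 2 at 1 Gy, 5 to 7 at 2 Gy, 7 to 8 at 4 Gy, 8 to 8 at 8 Gy, 9 to 9 at 12 Gy and 8 to 9 in the trend. The lung steps gave 0 to 1 from 2 to 4 Gy (Fcrla, without 4 Gy mouse 4) and 0 to 1 from 8 to 12 Gy (Pax5), and 0 to 0 in the other steps. Between organs it gave 0 to 0 at 1 and 2 Gy, 1 to 2 at 4 Gy, 2 to 4 at 8 Gy, 5 to 7 at 12 Gy and 3 to 5 in the trend, and 7 to 8 in sham mice. In liver at 2 Gy, Cd79b was lost without sham mouse 11 or 21 or 2 Gy mouse 3 or 23, and Ms4a1 was gained without 2 Gy mouse 13.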

Other observations

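Hepatocyte RNA varied between lungs. The summed intensity of 10 hepatocyte genes was highest, at 88073, in a 4 Gy lung and lowest, at 1224, in a 1 Gy lung, and its range was 1433 to 8437 in sham lungs and 4052 to 10473 at 12 Gy.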
